A study of Mus musculus with 4 samples.

Results

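The histone genes whose symbols start with Hist1h, Hist2h, Hist3h or Hist4h were followed through single-cell RNA-seq of mouse colonoid cultures, which are crypt epithelium grown in a gel as organoids, here together with mesenchymal cells. Members were chosen by symbol alone, and 67 of the 30360 genes in the table met the rule. Colonoids came from 16-week-old wildtype mice and from mice lacking TNF receptor 2 in the whole body (Tnfr2-/-), and each genotype was grown untreated or with 20 ng/ml TNF from day 1 to day 6 after passage 5, then harvested on day 7 with dead cells removed by annexin V. Each of the 4 groups was 1 library, so no test between groups was possible, every difference below compares 2 libraries, and the intervals cover counting error only. The wildtype libraries held 2589 untreated and 1469 TNF-treated cells with 87228093 and 56063515 unique molecular identifiers (UMIs, each a captured mRNA molecule), and the Tnfr2-/- libraries 1117 and 980 cells with 53178273 and 44547639 UMIs. The authors had assigned the cells to 11 classes, 7 epithelial and 4 mesenchymal. In epithelial cells the targeted gene Tnfrsf1b was at 4.17 UMIs per 1000000 UMIs (CPM) in untreated and 12.1 in TNF-treated wildtype cells, and at 1.82 and 6.89 in the matching Tnfr2-/- cells. It was lower in Tnfr2-/- than in wildtype at each treatment but not absent, and a tag at the 3' end of a gene does not check a deletion elsewhere in it. No library was left out. Cell barcodes were shared between libraries in 3 cases, each by 2 libraries.

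Histones package DNA. H2A, H2B, H3 and H4 form the nucleosome core and H1 binds the linker DNA between cores. A cell doubles its chromatin in S phase, and most genes of the Hist clusters are known as replication-dependent: they are transcribed mainly in S phase, and their mRNAs end in a conserved stem-loop bound by SLBP in place of a poly(A) tail. Some members are known to give polyadenylated mRNAs as well, also in cells that have stopped dividing. In the colon, dividing progenitors at the crypt base feed absorptive and secretory cells that leave the cycle.

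The members were in 5 families: 6 linker H1 genes, 18 H2A, 18 H2B, 12 H3 and 13 H4 genes. All 67 were found in GENCODE M21 (mouse build GRCm38) by their Ensembl identifiers, 54 on chromosome 13, 10 on chromosome 3, 2 on chromosome 11 and 1 on chromosome 6. Each gene was read from 1 model, its longest protein-coding one, so the stem-loops and lengths given here and below depend on that choice. A stem-loop with a 6-base stem and a 4-base loop was found in the transcript models of 45 members. The most common form, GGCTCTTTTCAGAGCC, was in 25 models, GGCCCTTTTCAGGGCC in 7 and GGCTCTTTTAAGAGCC in 6. The elements of 7 of the members with most UMIs are shown because the models differ in what follows them, with the stem-loop in capitals and 6 bases of flank on each side.
Hist1h3c: aaaaaaGGCTCTTTTAAGAGCCacctaa
Hist2h2ac: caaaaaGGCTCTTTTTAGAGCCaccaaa
Hist1h1e: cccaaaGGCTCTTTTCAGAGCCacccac
Hist1h4d: accaaaGGCCCTTTTCAGGGCCactacc
Hist1h1c: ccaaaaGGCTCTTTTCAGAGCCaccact
Hist1h4i: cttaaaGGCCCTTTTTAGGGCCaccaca
Hist3h2a: accaaaGGCTCTTTTCAGAGCCacccac
The annotated transcript went on for 74 bases after the stem-loop in Hist1h3c (chr13:23744973-23745602, minus strand) and for 57 in Hist2h2ac (chr3:96220361-96220880, minus strand). It went on for 1153 bases in Hist1h1e (chr13:23620629-23622558, minus strand) and for 770 in Hist1h4d (chr13:23581598-23582735, plus strand). It continued for 840 bases in Hist1h1c (chr13:23738808-23740367, plus strand), for 330 in Hist1h4i (chr13:22040636-22041362, minus strand) and for 1643 in Hist3h2a (chr11:58954685-58956830, plus strand). Over all members, the model ended within 60 bases of the stem-loop in 21 and ran on for more than 300 bases in 18. A poly(A) signal, AATAAA or ATTAAA in the last 40 bases, was found in 17 models.

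Promoters of the linker histone genes are shown because 5 of their 6 RefSeq promoters (300 bases each, build GRCm38.p6) held the H1 box AAACACA, which was in 7.14% of all 27025 promoters on either strand. The windows are the 130 bases before the RefSeq start, 5′ to 3′ along the gene, with the H1 box, the CCAAT box and the TATA box (TATAAA) in capitals where they were found on either strand. They lay at chr13:21780626-21780755 on the minus strand for Hist1h1b, chr13:23622559-23622688 on the minus strand for Hist1h1e and chr13:23738677-23738806 on the plus strand for Hist1h1c.
Hist1h1b: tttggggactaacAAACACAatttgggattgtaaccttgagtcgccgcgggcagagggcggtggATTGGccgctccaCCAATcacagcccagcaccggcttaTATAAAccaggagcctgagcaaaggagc
Hist1h1e: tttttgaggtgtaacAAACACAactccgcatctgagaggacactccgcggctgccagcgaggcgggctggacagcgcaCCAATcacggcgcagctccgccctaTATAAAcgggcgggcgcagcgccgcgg
Hist1h1c: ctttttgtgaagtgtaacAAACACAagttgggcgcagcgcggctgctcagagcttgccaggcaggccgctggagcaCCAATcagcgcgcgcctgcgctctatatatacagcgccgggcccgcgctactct
Promoters of 62 members were in the table. CCAAT was in 53 of them against 37.9% of all promoters, and H4 stood apart with 3 of 12. TATAAA was in 35 (14.2% of all promoters) and the octamer ATTTGCAT in 13, 7 of them H2A and 6 H2B genes (1.75% of all). Hist1h2bc had no entry. In 13 pairs, 2 members faced away from each other with starts within 1000 bases. Hist1h2bc and Hist1h2ac formed such a pair, 251 bases apart.

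Across the 4 libraries the members gave 270788 UMIs, 0.112% of all UMIs, and 4 genes held 70.6% of these. The core histone gene Hist1h2bc (chr13:23684199-23692908, plus strand) had 92008 UMIs, 34.0% of the histone total. The linker histone genes Hist1h1e, Hist1h1c and Hist1h1b (chr13:21779883-21780625, minus strand) followed with 33848, 33079 and 32176 UMIs. Another 8 genes, Hist1h4d, Hist1h2ae, Hist1h3c, Hist1h4i, Hist2h2ac, Hist1h2ap, Hist3h2a and Hist1h1d, brought the share to 88.8%. A UMI was seen for 65 or 66 of the 67 members in every library, but 6 had fewer than 20 UMIs in all, among them the testis linker histone gene Hist1h1t with 10. These shares describe what was captured, since the libraries prime on poly(A) which an mRNA ending in the stem-loop lacks. How far capture set the level of each gene was not tested. For 27 members at least 50% of the 90-base stretches of the transcript also occurred in another transcript, so the split of UMIs among near-identical copies is uncertain. Hist1h2ap (92.4%) and Hist1h3e (50.2%) were among them, Hist1h1b had 0 and Hist1h2bc 26.1%, and the models of Hist1h1e and Hist1h2be overlap.

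The summed level of all members was higher in Progenitor.2 than in Progenitor.1 in every library but wildtype + TNF, and the genes behind it were not the same. In Progenitor.1, the class with high levels of the proliferation genes Mki67 and Top2a, linker H1 genes were the family with most histone UMIs, and in Progenitor.2 H2B genes were, led by Hist1h2bc. The sum was 1197, 1341, 1243 and 971 CPM in Progenitor.1, given here and from here on in the order of wildtype untreated, wildtype with TNF, Tnfr2-/- untreated and Tnfr2-/- with TNF. It was 1661, 1185, 1947 and 1425 CPM in Progenitor.2. H1 genes made up 51.6%, 49.6%, 51.2% and 49.7% of histone UMIs in Progenitor.1 and 19.4%, 26.9%, 22.4% and 24.1% in Progenitor.2. H2B genes went from 17.2%, 12.6%, 13.8% and 13.5% to 70.5%, 63.1%, 62.4% and 65.4%. H2A held at least 16.9% in Progenitor.1 and at most 4.31% in Progenitor.2. Mki67 was at 174, 225, 200.0 and 225 CPM in Progenitor.1 and at 1.79, 9.78, 4.14 and 7.82 CPM in Progenitor.2.

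Members fell into sets by the sign of this class difference in all 4 libraries. The lower set, 40 genes with 46.7% of histone UMIs, was lower in Progenitor.2 than in Progenitor.1. It had 4 H1, 12 H2A, 12 H2B, 7 H3 and 5 H4 genes. The higher set, with 50.9% of UMIs, was Hist1h2bc, Hist1h1c, Hist1h4i, Hist3h2a, Hist2h3c2, Hist2h3c1, Hist1h3d and Hist2h2aa2. The other 19 genes, with 2.37% of UMIs, changed sign between libraries or tied. At least 50% of 90-base stretches were shared in 3 of the 8 (Hist2h3c2, Hist2h3c1 and Hist2h2aa2) and in 16 of the 40. Hist2h2aa2 (100%, 67 UMIs) shares sequence with Hist2h2aa1 (88.5%) of the lower set. The placement of such copies is uncertain, and they are counted in the model comparisons below. The sets were drawn from these values and the classes from clustering of the same cells, so the contrast is a description with no test. Not all members went with the proliferating class, as the name replication-dependent would have it, so they are called here by their symbols. The annotated models of the sets also differed in length: more than 300 bases followed the stem-loop in 6 of 8 models of the higher set and in 9 of 40 of the lower set. A poly(A) signal was near the end in 4 of 8 and 5 of 40, and the median model length was 1202.5 and 514 bases. The completeness of the models differed too: 16 of the 40 models of the lower set held no stem-loop and 11 were no longer than a core histone coding sequence, against 1 and 0 of the 8.

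**Figure D1:**
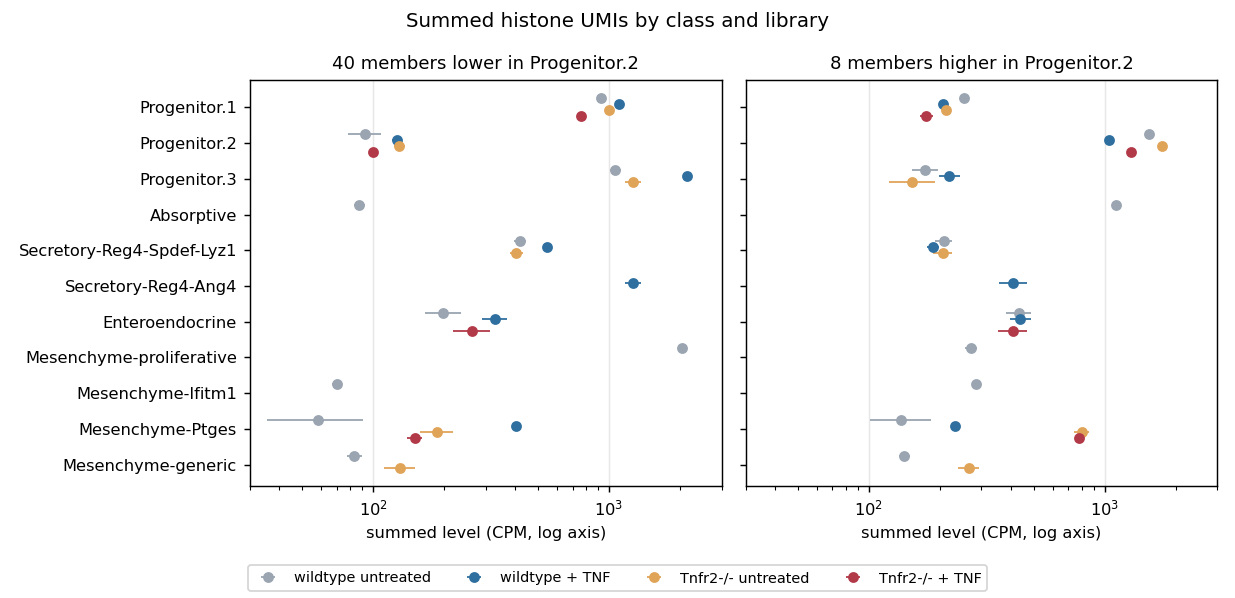
Summed level in CPM (log axis) of the 40 members lower in Progenitor.2 (left) and the 8 members higher there (right) in each class with at least 20 cells in a library, with colours for the libraries and bars for exact 95% Poisson intervals. The lower set is at 759 to 1100 CPM in Progenitor.1 and 92.3 to 129 CPM in Progenitor.2, while the higher set goes from 175 to 254 CPM up to 1038 to 1742 CPM.

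Hist1h1b, of the lower set, was high in Progenitor.1 and at or near 0 in Progenitor.2. Its level was 271, 260, 284 and 200.5 CPM in Progenitor.1, and in Progenitor.2 it had 0 UMIs in the wildtype untreated library (62 cells, which allows up to 1.79 CPM) and 4.65, 4.34 and 2.19 CPM in the others. The differences were -5.53, -5.74 and -5.98 log2 in the last 3 libraries, with the sign that placed Hist1h1b in this set. Hist1h1e, another linker histone gene, was at 231, 270, 231 and 174 CPM against 49.4, 71.0, 52.9 and 49.6 CPM, a difference of -2.20, -1.91, -2.10 and -1.79 log2, so it kept a level in Progenitor.2 that Hist1h1b did not. The core histone genes Hist1h3c and Hist2h2ac went further down than Hist1h1e. Hist1h3c (H3) was at 45.6, 76.4, 52.5 and 34.5 CPM in Progenitor.1 and at 0.596, 3.00, 0.807 and 0.593 CPM in Progenitor.2. Hist2h2ac (H2A) was at 40.4, 55.5, 45.5 and 20.5 CPM against 3.57, 2.76, 3.73 and 2.02 CPM. Hist1h4d (H4) was at 53.2, 67.2, 62.9 and 62.2 CPM against 4.76, 14.1, 15.1 and 14.1 CPM, a smaller difference than those of Hist1h3c and Hist2h2ac in every library but wildtype untreated. Hist1h2ae and Hist1h2ap (H2A), Hist1h3e (H3), Hist1h1d (H1) and Hist1h2bj (H2B) were lower in Progenitor.2 in the same way, Hist1h2ae for example at 51.3 to 75.2 CPM against 3.55 to 8.68 CPM. Hist1h2be (H2B) was closer between the classes, with 7.20, 9.91, 8.85 and 10.5 CPM against 5.36, 3.55, 8.17 and 4.86 CPM. Hist4h4, the lone member with a Hist4h symbol, was at 1.38 to 3.12 CPM in Progenitor.1.

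In the higher set, Hist1h2bc was at 153, 93.1, 103 and 74.1 CPM in Progenitor.1 and at 1158, 739, 1194 and 918 CPM in Progenitor.2, a difference of 2.91, 2.97, 3.52 and 3.61 log2. The lowest Progenitor.2 value was thus well above the highest Progenitor.1 value, in the direction that placed Hist1h2bc in this set. Hist1h1c was the linker histone gene that went against the others, at 71.1, 86.4, 76.4 and 72.3 CPM against 263, 238, 366 and 287 CPM. Hist1h4i (H4) was at 13.5, 10.4, 15.4 and 12.9 CPM against 65.5, 23.9, 112 and 42.3 CPM. Hist3h2a (H2A) had the smallest of these differences, 12.9, 13.2, 14.6 and 11.9 CPM against 27.4, 26.1, 39.7 and 29.1 CPM. Hist1h2ac, the neighbour of Hist1h2bc, was at 3.94, 7.56, 5.99 and 7.80 CPM in Progenitor.1 and at 9.53, 5.91, 19.6 and 10.1 CPM in Progenitor.2. It was higher in Progenitor.2 in every library but wildtype + TNF, and its level was far below that of its neighbour.

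**Figure D2:**
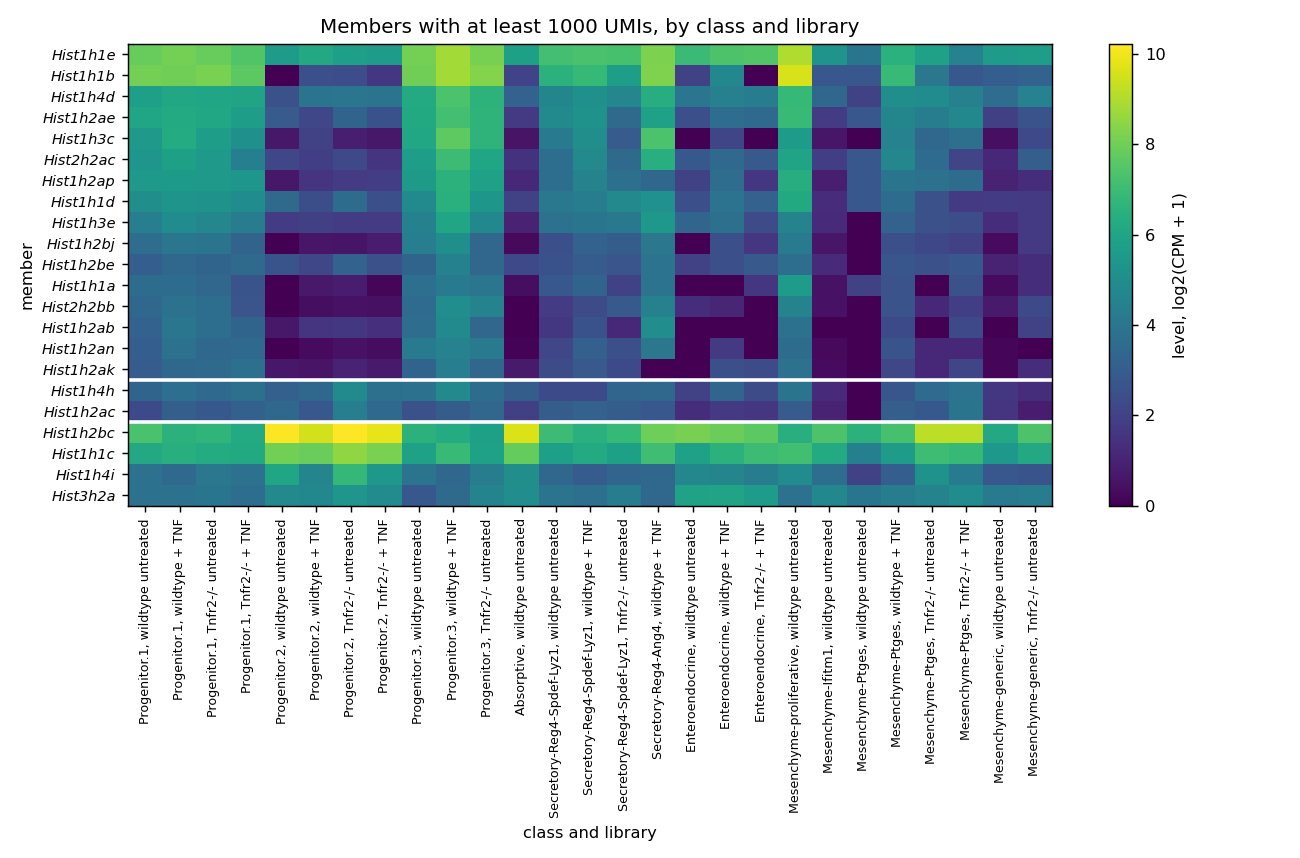
Level, as log2(CPM + 1), of the 22 members with at least 1000 UMIs (rows) in each class with at least 20 cells of a library (columns), with white lines between the lower set, the members of changing sign and the higher set. Rows of the lower set are bright in Progenitor.1, Progenitor.3 and Mesenchyme-proliferative, and Hist1h2bc is brightest in Progenitor.2 and Absorptive.

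The sets were also followed in classes other than the 2 that drew them. Contrasts of those classes with Progenitor.1 reuse values that drew the sets, so their direction is in part set by that choice. Among 16 members of the lower set with at least 1000 UMIs, pairwise Pearson correlations over 19 class and library sums outside Progenitor.1 and Progenitor.2 had a median of 0.849 (0.569 to 0.952 over 120 pairs). The 4 such members of the higher set were less alike, with a median of 0.522 (0.195 to 0.691 over 6 pairs), and across the sets it was -0.117 (-0.690 to 0.564 over 64 pairs). These sums share libraries, depths and classes, so the values are descriptions. In the wildtype untreated library, 39 of 40 members of the lower set were lower in Absorptive than in Progenitor.1 cells. The exception was the H2B gene Hist2h2be, and all 8 of the higher set were higher in Absorptive cells. No share of all genes is given beside this or the class counts that follow, so these counts do not show how unusual the members are. The 40 also include members with few UMIs. The lower set summed to 87.6 CPM in the 319 Absorptive cells against 922 CPM in Progenitor.1, and the higher set to 1115 CPM against 254 CPM. Hist1h2bc reached 821 CPM and Hist1h1c 220.0 CPM in Absorptive cells, where Hist1h1b was at 3.11 CPM. Absorptive cells, the enterocyte class by the authors' name, were thus near Progenitor.2 in both sets.

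The secretory class Secretory-Reg4-Spdef-Lyz1 lay between, with the lower set at 420, 544 and 405 CPM in the first 3 libraries (73, 111 and 63 cells). Each of the 16 members with at least 1000 UMIs was lower there than in Progenitor.1 in these 3 libraries, while the higher set, at 207, 187 and 205 CPM, stayed near its Progenitor.1 level. Enteroendocrine cells had the lower set at 198, 328 and 262 CPM and the higher set at 431, 438 and 408 CPM in both wildtype libraries and Tnfr2-/- + TNF. Hist3h2a was at its highest epithelial level in this class, with 57.9, 62.1 and 49.2 CPM in those 3 libraries. Hist2h2be was at 10.7, 5.75 and 6.15 CPM there against 0.688 to 2.34 CPM in Progenitor.1. The enteroendocrine sums held 655879, 869967 and 487637 UMIs in 33, 31 and 27 cells, so each of these Hist2h2be levels is a few UMIs. The class Secretory-Reg4-Ang4, found in the wildtype + TNF library, had the lower set at 1268 CPM in 246 cells with a median of 1957.5 UMIs each. Its mesenchymal markers summed to 1126 CPM, against 1.88 to 29.3 CPM in the other epithelial classes and up to 261 in enteroendocrine cells, and their part in its histone level was not tested.

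In mesenchymal cells the lower set again went with the class named for proliferation. Mesenchyme-proliferative cells (111, wildtype untreated) had the lower set at 2037 CPM, against 70.2 CPM in the 892 Mesenchyme-Ifitm1 cells and 83.2 CPM in the 393 Mesenchyme-generic cells of that library. In each contrast 39 of 40 members were higher in the proliferative class. Hist1h1b reached 769 CPM and Hist1h1e 510.4 CPM there, and H1 genes made up 65.6% of histone UMIs. The higher set was at 271 CPM there, near the 284 CPM of Mesenchyme-Ifitm1, with 4 of its 8 members higher and 4 lower. It was above the 141 CPM of Mesenchyme-generic by 0.94 log2, with 5 members higher and 3 lower. In Mesenchyme-Ptges cells the higher set was at 137, 232, 797 and 775 CPM, with Hist1h2bc at 93.4, 152, 596 and 592 CPM, so both Tnfr2-/- libraries were above both wildtype libraries. Signs of quality and of other cells also differed between these libraries, though not by genotype. The wildtype untreated cells had 13.0% mitochondrial UMIs and a median of 5755 UMIs, against 3.07 to 4.83% and 21965 to 48633 in the others. Epithelial markers summed to 889 CPM in Tnfr2-/- + TNF against 61.2 to 213 CPM in the others. The part of these signs was not tested. The levels rest on 34, 304, 37 and 122 cells, and the lower set in them was at 58.4, 405, 186 and 150 CPM.

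Progenitor.3 cells carried the lower set above its level in Progenitor.1 in the 3 libraries with at least 20 such cells. The summed level of all members was 1265 (95% interval 1208 to 1324), 2419 (2346 to 2494) and 1461 (1360 to 1567) CPM in 95, 148 and 51 cells of the first 3 libraries. The fourth had 11 cells and 987 CPM. Against Progenitor.1 the difference was 0.08 (0.01 to 0.15), 0.85 (0.80 to 0.90) and 0.23 (0.13 to 0.34) log2, and 0.02 (-0.26 to 0.30) in the fourth. The difference of the pooled sums was largest in wildtype + TNF, although that of wildtype untreated came near it in cells thinned to equal depth. The lower set in wildtype + TNF was at 2145 CPM against 1100 CPM. There 37 of its 40 members were higher in Progenitor.3, compared with 30 in wildtype untreated and 27 in Tnfr2-/- untreated cells. No share of all genes stands beside these counts. Among its 16 members with at least 1000 UMIs, 16, 14 and 13 were higher in Progenitor.3 of these libraries. The core histone genes Hist1h3c, Hist1h4d and Hist2h2ac were among them. Hist1h3c was at 67.5, 208 and 98.0 CPM in Progenitor.3 of the first 3 libraries, 0.56, 1.43 and 0.89 log2 above Progenitor.1. Hist1h4d was at 75.0, 161 and 96.1 CPM, 0.49, 1.25 and 0.60 log2 above, and Hist2h2ac at 51.8, 127 and 66.0 CPM. The linker genes Hist1h1e and Hist1h1b moved less, with Hist1h1e 0.24, 0.71 and 0.26 log2 above Progenitor.1. Hist1h1b was 0.06 below in wildtype untreated and 0.79 and 0.16 log2 above in the next 2 libraries. Hist1h2bc was lower in Progenitor.3 in these 3 libraries, by 0.69, 0.26 and 0.90 log2.

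Progenitor.3 cells were shallow, with medians of 7137, 9570 and 6364 UMIs against 43626, 44064 and 46629 in Progenitor.1, and held 19.5, 28.0 and 15.2 histone UMIs a cell against 60.6, 73.1 and 70.6. The share of histone molecules, not their number, was therefore what was at least as high. Without the 5% of cells with the highest histone share in each of the 2 classes the difference was 0.20, 0.93 and 0.21 log2. With every cell thinned to 5000 UMIs it was 0.83, 0.92 and 0.39 log2, and this left out 32, 36 and 21 shallower Progenitor.3 cells.

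Within a class the lower set was spread unevenly over cells. After thinning to 5000 UMIs, 62.5%, 67.8%, 72.7% and 76.6% of Progenitor.1 cells had at least 1 UMI of the set, the median cell had 1, 1, 1 and 1.5, and the 10% of cells with most UMIs of the set held 53.9%, 54.8%, 51.1% and 44.7% of its UMIs. In Progenitor.3 of the first 3 libraries 79.4%, 83.9% and 83.3% of cells had a UMI and the median cell had 4, 4 and 2. Hist1h1b was detected in 25.5%, 26.6%, 31.5% and 22.3% of thinned Progenitor.1 cells (43.0%, 43.9%, 51.8% and 49.5% unthinned) and in 50.8%, 49.1% and 43.3% of thinned Progenitor.3 cells (48.4%, 54.1% and 33.3% unthinned). In Absorptive cells, which do not divide, it was detected in 0.631% thinned (0.0765 to 2.26%) and 3.13% unthinned at a median depth of 40871 UMIs. Thinned Progenitor.2 cells, with 0%, 1.85%, 0.889% and 0.423%, were near this background. Hist1h2bc went the other way, with a UMI in 37.0%, 30.1%, 32.5% and 30.9% of thinned Progenitor.1 cells, 85.7%, 78.1%, 83.1% and 77.0% of Progenitor.2 cells and 90.9% of Absorptive cells.

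The lower set went with both S-phase and G2/M genes over the cells of Progenitor.1. S-phase genes are the replication helicase subunits (Mcm genes), the sliding clamp Pcna and other replication genes, and Progenitor.1 cells were split by their thinned UMIs of these genes into 3 equal groups. Mean UMIs of the lower set were 0.874, 1.36, 1.22 and 1.06 in the lowest group and 8.58, 11.7, 9.84 and 6.26 in the highest. Mean UMIs of G2/M genes climbed over the same groups, from 3.23, 3.23, 3.37 and 2.31 to 14.5, 15.8, 16.2 and 17.4. Hist1h1b went from 0.0714, 0.134, 0.140 and 0 to 2.41, 2.71, 3.09 and 1.58. Hist1h2bc went down, from 1.33, 0.661, 0.884 and 0.875 to 0.225, 0.198, 0.276 and 0.194, in every library. Spearman's rho of the lower set with S-phase UMIs over thinned Progenitor.1 cells (546, 335, 644 and 94) was 0.52, 0.50, 0.50 and 0.45, and with G2/M genes, which act in mitosis, it was no lower, at 0.53, 0.51, 0.58 and 0.60. It was -0.37, -0.23, -0.28 and -0.33 for Hist1h2bc and 0.10, 0.22, 0.14 and -0.10 for Hist1h1c with S-phase UMIs. Hist1h1c, of the higher set, thus did not share the sign of Hist1h2bc in 3 of 4 libraries, and its mean went from 0.231, 0.179, 0.251 and 0.531 to 0.429, 0.514, 0.519 and 0.355. In Progenitor.3 the lower set had 0.44 (63 cells) and 0.61 (112 cells) in the wildtype libraries, and in Progenitor.2 at most 0.22. In Mesenchyme-proliferative cells it was 0.50 with S-phase and -0.07 with G2/M genes. All points of a value share a library, so these are descriptions.

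**Figure D3:**
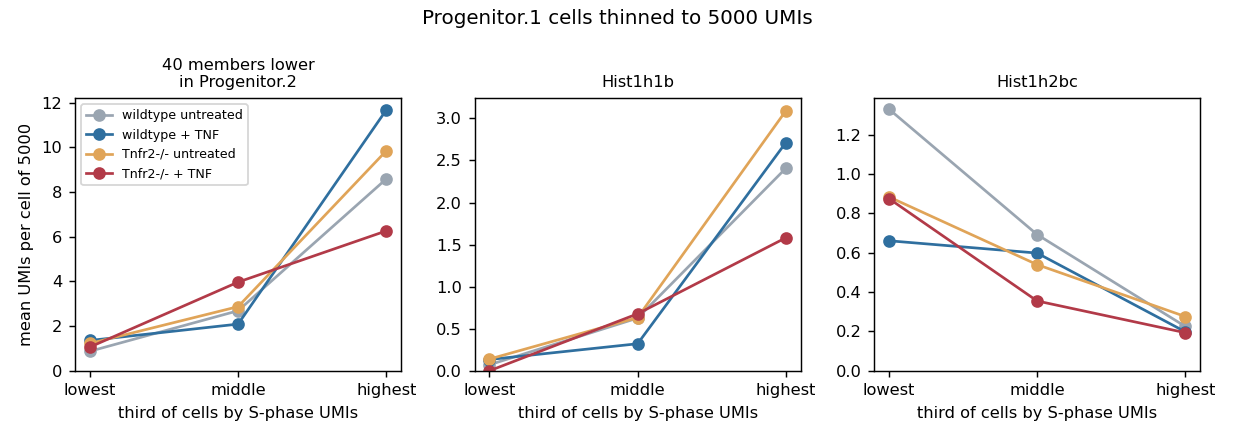
Mean UMIs per Progenitor.1 cell thinned to 5000 UMIs, for the lower set, Hist1h1b and Hist1h2bc, in 3 equal groups of cells ordered by S-phase UMIs (31 to 215 cells a group), 1 line a library. The lower set and Hist1h1b climb in every library, to 6.26 to 11.7 and 1.58 to 3.09 UMIs, and Hist1h2bc goes down to 0.194 to 0.276 UMIs.

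Several genes that serve histone supply went with the lower set between Progenitor.1 and Progenitor.2, but not all did in Progenitor.3. Slbp, whose product binds the stem-loop, was at 66.6, 61.1, 57.4 and 61.4 CPM in Progenitor.1, at 14.3, 22.2, 25.3 and 21.1 CPM in Progenitor.2 and at 137 CPM in Mesenchyme-proliferative cells. Npat, the activator of histone gene transcription, differed less, at 19.4, 22.6, 21.6 and 23.6 CPM against 10.7, 12.1, 14.03 and 11.1 CPM. In Progenitor.3 of the first 3 libraries Slbp was at 57.9, 57.9 and 92.4 CPM and Npat at 12.3, 12.3 and 18.8 CPM. In the wildtype libraries both were below their Progenitor.1 levels, Slbp by little, where the lower set was above. In Tnfr2-/- untreated cells Slbp was above its Progenitor.1 level and Npat below. These Progenitor.3 sums held 1467192, 1710276 and 530565 UMIs in all, so Npat rests on few UMIs there. No interval is given, and small differences are not resolved. The chaperone gene Asf1b was at 19.7 to 21.4 CPM against 1.07 to 2.98 CPM. Among variant histone genes, H2afz was at 1255, 1141, 1086 and 1057 CPM against 309, 471, 435 and 372 CPM, while H3f3b, which encodes the replacement H3, was at 1308 to 1596 CPM against 1160 to 1581 CPM. H1f0, a linker variant known from cells that stop dividing, was at 117, 112, 128 and 110 CPM against 100.1, 111, 167 and 172 CPM. Over 27 class and library sums the profile of the lower set was most like those of Melk (r = 0.965), Hmgb2 (0.958) and Vrk1 (0.955) among 10090 genes, and H2afz had 0.934. The profile of the higher set was most like those of Mxd1 (0.889), Ccng2 (0.888) and Gpr137b (0.886). The sum of all members had no gene as close, with Arpp19 at 0.827, Csnk2b at 0.806 and Tuba1c at 0.802. The 27 sums include the Progenitor.1 and Progenitor.2 sums that drew the sets. The likeness found for each set is therefore in part fixed by that choice.

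Between untreated genotypes the epithelial histone level was close, with slightly more of the lower set in Tnfr2-/- cells. The sum of all members was 1183 CPM in wildtype and 1348 CPM in Tnfr2-/- epithelial cells, a difference of 0.19 log2. The lower set was at 594 and 787 CPM (0.40, counting interval 0.38 to 0.43) and the higher set at 569 and 522 CPM (-0.12, -0.15 to -0.10). Of 13 members at 20 CPM or more in either library, 0 were 2-fold higher or lower, where 2.42% of 6021 genes were higher and 3.59% lower, and the median difference was 0.39 against 0.11 for all genes. Hist1h4i and Hist1h3e had the largest differences upward, 0.67 and 0.63 log2. Of the replication genes 1 of 19 tested was 2-fold higher, the chromatin helicase gene Hells. Within Progenitor.1 the sum differed by 0.05 log2 and again 0 of 11 members passed, against 1.15% of genes higher and 1.1% lower. Progenitor.1 cells were 48.4% of wildtype and 63.2% of Tnfr2-/- epithelial cells, and Absorptive cells were nearly all wildtype. With Progenitor.1 and Progenitor.2 weighted equally, a choice made after seeing the data, the lower set differed by 0.16 log2 and the higher set by 0.12, the opposite sign to its pooled value, and within Progenitor.1 the lower set differed by 0.12. In Progenitor.2, 1 of 6 members was 2-fold higher, the H4 gene Hist1h4h (7.74 and 28.9 CPM), against 4.32% of genes, and 0 were lower, against 3.66%. With no error over replicate cultures, the spread between libraries of 1 group is unknown.

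With TNF the same genotype difference was large in the pooled epithelium, in opposite directions for the 2 sets. The sum of all members hid this, with 1237 CPM in wildtype and 1349 CPM in Tnfr2-/- cells. The sets were drawn by class from these same cells. Where class shares differ, opposite pooled signs of the sets are therefore in part fixed by that choice. The lower set was at 723 CPM in wildtype and 189 CPM in Tnfr2-/- cells, a difference of -1.93 log2 (-1.97 to -1.89), and the higher set at 485 and 1126 CPM, 1.21 log2 (1.19 to 1.24). Of 13 members tested, 9 were at least 2-fold lower in Tnfr2-/- cells, where 6.37% of 6073 genes were: Hist1h1b, Hist1h1d, Hist1h1e, Hist1h2ae, Hist1h2ap, Hist1h3c, Hist1h3e, Hist1h4d and Hist2h2ac. Hist1h2bc and Hist1h4i were 2-fold higher, where 5.04% of genes were. The median over the members was -1.56 against -0.10 for all genes. Hist1h3c was at 50.3 CPM in wildtype and 5.13 in Tnfr2-/- cells (-3.07), Hist2h2ac at 36.2 and 4.45 (-2.77) and Hist1h1b at 157 and 28.4 (-2.43). Hist1h2bc was at 308 and 793 CPM (1.36) and Hist1h1c at 138 and 255 (0.88). S-phase genes were 2-fold lower in 7 of 13 tested and G2/M genes in 16 of 20. The genes of histone mRNA 3' end processing were past 2-fold in 0 of 18, with a median of -0.38, and histone chaperones in 3 of 12, Asf1a, Hat1 and Dnajc9, all lower.

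The class make-up of these libraries differed as much. Progenitor.1 cells were 28.8% of epithelial cells in wildtype + TNF and 11.1% in Tnfr2-/- + TNF, and Progenitor.2 cells were 23.5% and 83.4%. Progenitor.2 gave 97.3% of the higher set's epithelial UMIs in Tnfr2-/- + TNF and 65.7% in wildtype + TNF. Within classes the differences were smaller. In Progenitor.1 the lower set was at 1100 CPM in wildtype and 759 CPM in Tnfr2-/- cells (-0.53 log2, -0.58 to -0.48) and the higher set at 206 and 175 CPM (-0.23), the opposite sign to the pooled value. There 2 of 11 members were 2-fold lower, Hist2h2ac (55.5 and 20.5 CPM, -1.40) and Hist1h3c (76.4 and 34.5 CPM, -1.12), against 2.04% of genes, and 0 were higher, against 1.29%. In Progenitor.2 the lower set differed by -0.33 log2 and the higher set by 0.31, and 0 of 5 members were 2-fold higher or lower, against 2.99% and 4.93% of genes. With both classes weighted equally the lower set differed by -0.51 log2 and the higher set by 0.24. S-phase genes did not follow the lower set down within Progenitor.1, with a median difference of 0.23. Nor did G2/M genes, with a median of 0.36 and 2 of 27 tested 2-fold higher, Ube2c and Tpx2. The Progenitor.1 difference of the lower set rests on the mean over 95 Tnfr2-/- + TNF cells. It was smaller without the 5% of cells with most UMIs, as given below. In thinned cells the median was 1.5 UMIs in Tnfr2-/- + TNF and 1 in wildtype + TNF. Medians this low cannot resolve a difference of this size, so they do not settle whether the typical cell was lower.

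**Figure D4:**
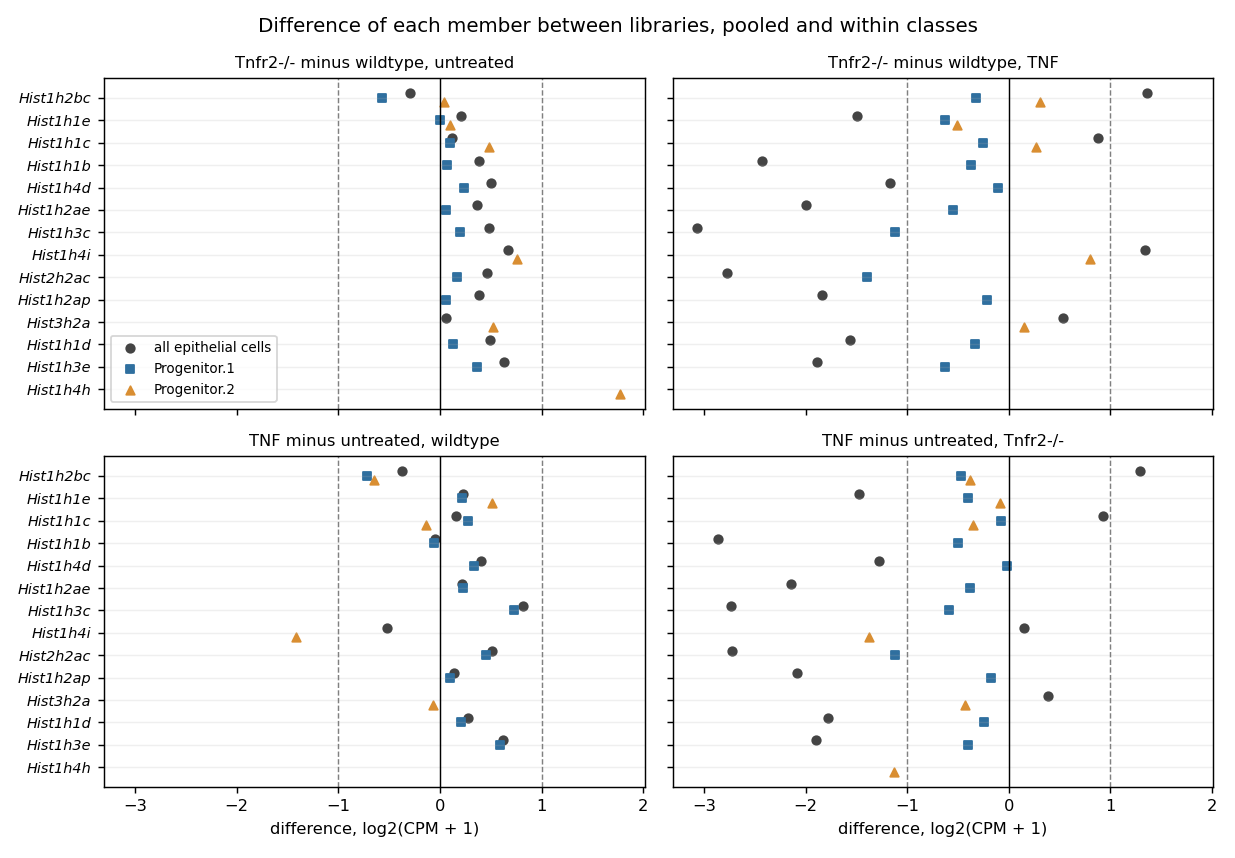
Difference of each member between 2 libraries in log2(CPM + 1), in 4 panels for the 4 comparisons, for members at 20 CPM or more in either library of all epithelial cells (circles), Progenitor.1 (squares) or Progenitor.2 (triangles), with dashed lines at 2-fold. In the 2 panels with Tnfr2-/- + TNF cells the circles of the lower set reach -3.07 and -2.86, while the squares reach -1.40 and -1.12.

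Untreated and TNF-treated wildtype cells had close histone levels over the pooled epithelium, while the sums within Progenitor.2 differed more. The sum was 1183 CPM untreated and 1237 CPM with TNF, the lower set 594 and 723 CPM (0.28 log2, 0.26 to 0.31) and the higher set 569 and 485 CPM (-0.23, -0.26 to -0.20). Of 12 members tested 0 were past 2-fold, where 2.54% of 5833 genes were higher and 1.08% lower. Hist1h3c and Hist1h3e, both H3 genes, had the largest upward differences, 0.82 and 0.62 log2, and Hist1h4i the largest downward, -0.52. H3 as a family was 0.69 log2 higher. In Progenitor.1 0 of 11 members passed, against 1.84% of genes higher and 0.615% lower, and Hist1h3c was 0.73 log2 higher there. In Progenitor.2 the sum was at 1661 CPM untreated and 1185 CPM with TNF (-0.49 log2) and the higher set at 1540 and 1038 CPM (-0.57). These rest on 62 and 273 cells with medians of 15574.5 and 39167 UMIs, and the part of depth was not tested. In thinned Progenitor.2 cells grouped by S-phase UMIs, mean UMIs of all members were 7.53, 5.21 and 7.94 untreated. They were 5.63, 5.62 and 6.51 with TNF, so the middle group was not lower. There 1 of 5 members was 2-fold lower, Hist1h4i (65.5 and 23.9 CPM), against 3.18% of genes, and 0 were higher, against 4.28%. Progenitor.2 cells were 5.50% of epithelial cells untreated and 23.5% with TNF, and Absorptive cells 28.3% and 1.63%.

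In Tnfr2-/- cells TNF went with the same opposite pattern as the genotype difference under TNF, and the comparisons share the Tnfr2-/- + TNF library. Here too the opposite pooled signs are in part fixed by how the sets were drawn, since class shares differed. The sum was 1348 CPM untreated and 1349 CPM with TNF, while the lower set was at 787 and 189 CPM (-2.05 log2, -2.09 to -2.02) and the higher set at 522 and 1126 CPM (1.11, 1.08 to 1.13). The members called lower were again 9 of 13, against 7.81% of 6143 genes, and Hist1h2bc was the 1 called higher, against 5.55%. Hist1h1b was at 213 CPM untreated and 28.4 with TNF (-2.86), Hist1h3c at 39.6 and 5.13 (-2.73) and Hist2h2ac at 35.0 and 4.45 (-2.72). S-phase genes were 2-fold lower in 16 of 19 tested, G2/M genes in 23 of 23, histone chaperones in 9 of 16 and 3' end processing genes in 2 of 20, Srrt and Lsm4. Of the variant histones 3 of 9 were lower, H2afz, H2afx and Cenpa, the centromeric H3. Progenitor.1 went from 63.2% to 11.1% of epithelial cells and Progenitor.2 from 22.8% to 83.4%. Within Progenitor.1 the lower set differed by -0.40 log2 (-0.45 to -0.35), and 1 of 11 members was 2-fold lower, Hist2h2ac (45.5 and 20.5 CPM, -1.12), against 0.933% of genes, with 0 higher, against 1.08%. Within Progenitor.2 the higher set was lower with TNF, at 1742 and 1290 CPM (-0.43), the opposite sign to the pooled epithelium, and 2 of 6 members were 2-fold lower, against 1.14% of genes: Hist1h4i, from 112 to 42.3 CPM, and Hist1h4h, from 28.9 to 12.6 CPM. None was higher, against 0.844%. With the classes Progenitor.1 and Progenitor.2 weighted equally, the TNF difference was -0.39 log2 for the lower set and -0.41 for the higher set.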

How the data were processed

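The members, gene lists and comparisons were chosen with earlier results of these data known. The deposited matrix held UMI counts per gene and cell, made by the authors with Cell Ranger 5.0.0 against mm10 (submitters' processing notes) from 10x 3' libraries, with cells under 100 UMIs and epithelial-mesenchymal doublets removed by the authors in monocle3. The lowest deposited cell had 894 UMIs. No doublet caller was run here. The library of each cell came from genotype and treatment in the deposited cell table, and classes from its annotation column, which 35 of 6155 cells lacked.

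For each class and library, counts of its cells were added up and divided by their total (CPM). Classes with at least 20 cells in a library were described. Intervals are exact 95% Poisson or Clopper-Pearson intervals and cover counting error only. Differences are log2(CPM + 1), which understates the change of low genes, and a member was called at 2-fold among genes at 20 CPM or more in either library. With 1 library a group there is no test. A level with 0 UMIs was given the limit of 3 counts. For shares of cells and correlations, cells were thinned to 5000 UMIs (5750 kept, 405 left out). Groups of cells by S-phase UMIs broke ties by file order. The text names the 12 members with most UMIs, the top 2 of each family, Hist2h2be, Hist4h4 and Hist1h2be, the 3 largest differences each way in a comparison, the genes most alike, fixed cell-cycle and histone-supply genes and called members of the lists. The members of changing sign and Hist1h1t were named after their values were seen. Transcript models came from GENCODE M21, with the longest protein-coding model taken for each gene, and promoters from RefSeq. Calls and interval coverage were tested on simulated data. Python 3.11.15, numpy 2.4.6, scipy 1.17.1, pandas 2.3.3, matplotlib 3.10.9 and edgeR 4.0.16 in R 4.3.3 (TMM factors only) were used.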

Additional observations from a re-analysis of the deposited data

Results flagged for a closer look

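Differences in direction between groups were not tested, since each group is 1 library. In epithelial cells the TNF difference had opposite signs in the genotypes for the lower set (Tnfr2-/- minus wildtype -2.33 log2) and the higher set (1.34), and, with the same values, so had the genotype difference between treatments. The same held for Hist2h2ac (-3.23), Hist1h2ap (-2.22), Hist1h1d (-2.05), Hist1h3e (-2.52), Hist1h2ae (-2.36), Hist1h4d (-1.67), Hist1h1e (-1.70), Hist1h3c (-3.55) and Hist1h2bc (1.66). Hist1h1b had opposite signs in the genotype difference (-2.81), with a TNF difference below 0 in both genotypes (-0.05 and -2.86). Within Progenitor.1 the signs were opposite for all members together (-0.52), Hist2h2ac (-1.57) and, in the genotype difference, Hist1h3c (-1.32). Class shares moved with the epithelial values, as given above. The sets were drawn by class, so their opposite pooled signs are in part fixed by that choice. With Progenitor.1 and Progenitor.2 weighted equally, the TNF difference in Tnfr2-/- cells was -0.39 for the lower set and -0.41 for the higher set, in place of -2.05 and 1.11.

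Cells with no class entered no comparison, and members were present in them, at 1237 CPM in 31 wildtype untreated and 844 CPM in 4 Tnfr2-/- untreated cells.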

How the results depend on the processing

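Of 208 alternative values 122 kept direction and size, 68 moved and 18 reversed. No paired analysis was possible because each group is 1 library, and for that reason none could be left out. Causes of the moves were not tested. Equal weights average Progenitor.1 and Progenitor.2 alone, so they fix the shares of these classes and also leave out all other epithelial classes. In wildtype untreated cells the Absorptive class, left out in this way, held 62.5% of the higher set's epithelial UMIs. Leaving out Hist1h2bc, weighting Progenitor.1 and Progenitor.2 equally, medians over thinned cells, the lower set alone, leaving out the 5% of cells with the highest histone share (of Progenitor.3 or of both classes) and calls within Progenitor.2 were chosen after seeing the data.

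The summed difference between untreated genotypes in epithelial cells, 0.19 log2, was 0.0853 with TMM factors, 0.0697 with median-of-ratios factors, 0.25 without the 5% of cells with most UMIs, 0.38 without Hist1h2bc and 0.16 with equal weights. In Progenitor.1, 0.05 became 0.00492, -0.0316, 0.0788 (mean of CPM per cell), 0.16 (without the top 5%) and 0.13 (without Hist1h2bc). With TNF, the epithelial 0.13 became 0.28 under both factors, -0.0318 as a mean per cell, 0.19 without Progenitor.3, 0.18 without the top 5%, -0.74 without Hist1h2bc and -0.0761 with equal weights, and -0.47 in Progenitor.1 became -0.26 without the top 5%. The TNF difference in wildtype epithelium, 0.06, became -0.0344 (TMM), -0.0355, 0.26 (per cell), 0.00621 (without Progenitor.3), 0.0306 (top 5%), 0.24 (without Hist1h2bc) and -0.18 (equal weights), and in Progenitor.1 0.16 became 0.0814, 0.0691, 0.19, 0.0793 and 0.26, in the order used for Progenitor.1 above. In Tnfr2-/- epithelium, 0.00 became 0.16 (TMM), 0.17, 0.0401 (per cell), -0.0408 (top 5%), -0.88 (without Hist1h2bc) and -0.41 (equal weights).

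With equal weights the lower set differed by 0.16 and -0.51 between genotypes (untreated, TNF) and by -0.39 with TNF in Tnfr2-/- cells, and the higher set by 0.12, 0.24, -0.53 (TNF, wildtype) and -0.41 (TNF, Tnfr2-/-), so that the first and last reversed. In Progenitor.1 the median over thinned cells gave 0, 0.58, 0 and 0.58 for the lower set, and leaving out the top 5% gave 0.28, -0.30 and 0.19 in the first 3 comparisons. Progenitor.3 minus Progenitor.1 was 0.52, 0.80 and 0.98 (wildtype untreated, wildtype + TNF, Tnfr2-/- + TNF) as a mean per cell, 0.83, 0.92 and 0.39 thinned in the first 3 libraries, 0.21, 0.96 and 0.34 for the lower set, -0.11, 0.58, -0.0871 and -0.27 without the Progenitor.3 cells of highest histone share (a fall that the choice of cells fixes), 0.20 and 0.93 in the wildtype libraries without such cells of either class, and -0.78 in Tnfr2-/- + TNF among cells with at least 5000 UMIs.

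Members called lower in Tnfr2-/- + TNF epithelium, 9 against wildtype and 9 against untreated, were 20 and 19 at a minimum of 5 CPM, 24 and 24 with none, and 0 and 2 within Progenitor.2. The 2 called higher against wildtype were 1 at a pseudocount of 10 and 0 within Progenitor.2, and the 1 against untreated was 2 with TMM and 0 within Progenitor.2. Untreated genotypes gave 1 higher with no minimum and 1 within Progenitor.2, and TNF in wildtype 1 lower within Progenitor.2. In Progenitor.1 the genotype comparison with TNF gave 1 higher with no minimum and 5, 5 and 1 lower (5 CPM, none, pseudocount 10), and TNF in Tnfr2-/- cells 2, 2 and 0.

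Members under about 20 UMIs are too shallow for any statement.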
